A study of Mus musculus with 4 samples.

Results

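The genes described here are 10 markers of the primitive streak and the posterior mesoderm, T, Tbx6, Wnt3, Wnt3a, Fgf8, Evx1, Mesp1, Cdx1, Cdx2 and Cdx4. They were taken by symbol from the 24015 genes of the count tables of mouse embryoid bodies, free-floating balls of differentiating embryonic stem cells. There were 2 Trim33-deficient and 2 Control libraries, all harvested on day 7 of differentiation. The labels describe stem cell lines of an outbred strain, homozygous for the Trim33-flox allele and carrying UbcCreERT2, a tamoxifen-dependent Cre recombinase under the ubiquitin C promoter. 4OH-Tamoxifen on day 4 made the bodies deficient in Trim33, which encodes a chromatin-binding ubiquitin ligase that partners with SMAD proteins. The Control libraries carry the genotype label wild type, and the labels do not state whether the Control bodies held the flox allele and UbcCreERT2, or received the drug. Day 4 is entered as the drug day for the Control libraries too, which does not settle whether they received it. Whole bodies were lysed, so fewer cells of a type and less RNA per cell cannot be told apart.

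The primitive streak is the groove through which epiblast cells leave to form mesoderm and definitive endoderm, and the tail bud later continues its work at the posterior end. WNT3 and then WNT3A signal through beta-catenin and TCF/LEF factors to switch on the T-box gene T (Brachyury). T and FGF8 keep the progenitors going, TBX6 commits them to paraxial mesoderm, MESP1 marks the earliest heart-forming mesoderm, and the CDX factors set posterior identity and HOX expression. SMADs downstream of NODAL and BMP act on the same cells.

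Upstream sequence is shown for 3 of the genes. T and Mesp1 are the members whose upstream 250 bases held a match to the searched motifs, and Tbx6 is the tested member with the smallest p. The sequences are from RefSeq on GRCm38.p6, 250 bases up to the base before the start site, read 5′ to 3′ on the gene's strand. Capitals mark the TCF/LEF letters CTTTGA and the CDX letters TTTATG, on either strand. T lies at chr17:8434173-8434422 (+), Tbx6 at chr7:126781233-126781482 (+) and Mesp1 at chr7:79793591-79793840 (−).
T: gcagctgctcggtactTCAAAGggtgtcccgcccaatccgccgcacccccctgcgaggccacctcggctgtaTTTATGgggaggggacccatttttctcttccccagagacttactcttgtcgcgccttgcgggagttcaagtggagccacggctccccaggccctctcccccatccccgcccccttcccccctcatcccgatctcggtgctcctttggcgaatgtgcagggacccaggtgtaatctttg
Tbx6: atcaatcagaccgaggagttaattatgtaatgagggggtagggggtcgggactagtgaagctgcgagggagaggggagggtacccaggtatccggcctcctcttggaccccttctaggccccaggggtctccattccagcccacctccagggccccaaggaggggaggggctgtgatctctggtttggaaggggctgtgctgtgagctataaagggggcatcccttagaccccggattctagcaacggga
Mesp1: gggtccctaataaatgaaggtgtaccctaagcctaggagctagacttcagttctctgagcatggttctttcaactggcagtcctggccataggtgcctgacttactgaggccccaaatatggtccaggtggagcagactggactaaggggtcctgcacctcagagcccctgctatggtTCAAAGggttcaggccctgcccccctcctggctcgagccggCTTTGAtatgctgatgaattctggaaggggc

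The T window holds CTTTGA on the minus strand 234 to 229 bases before the start and TTTATG on the plus strand 178 to 173 bases before it. The Mesp1 window holds CTTTGA on the minus strand 72 to 67 bases before the start and on the plus strand 31 to 26 bases before it. Among 32851 RefSeq windows of the same length, 13.8% hold CTTTGA and 10.8% hold TTTATG on either strand. The T-box letters TCACACC are in 3.33% of windows and in 0 of the 8 member windows. No motif overlapped another in these windows, and the upstream windows of Wnt3, Wnt3a, Evx1, Cdx2, Cdx4 and Tbx6 held none of the 3 motifs. Wnt3a has a GC-rich window at 87.6% G and C, against a median of 52.4% over all windows. Fgf8 and Cdx1 have no window here. A match is a description of letters and says nothing of binding in these bodies.

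The libraries held 10422738 to 13808837 counts in genes. Levels are CPM, the usual scaling of counts to a common library total, with library sizes adjusted by the trimmed mean of M values (TMM), and a difference is a log2 fold change, Trim33-deficient over Control. The targeted gene, Trim33, was at 43.8 and 42.3 CPM in Trim33-deficient bodies and at 93.0 and 109.1 CPM in Control bodies. Its log2 fold change was −1.23 (SE 0.13), with an adjusted p of 0.219 in edgeR's quasi-likelihood test and 1.8e-06 in DESeq2. The first Control replicate was the least like the rest (Pearson r of 0.932 to 0.952 across genes).

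None of the 10 genes passed the test between Trim33-deficient and Control bodies. The filter on low counts kept 7 of them among 14259 genes, leaving out Mesp1, Cdx1 and Cdx4. The edgeR quasi-likelihood test at an adjusted p of 0.05 called 0 of the 7, and across all genes it called 0.014% lower and 0% higher. DESeq2 also called 0 of the 7, against 0.807% of all genes lower and 0.182% higher, and at an unadjusted p under 0.05 edgeR had 1, Tbx6. The edgeR likelihood ratio test likewise called 0 of the 7, against 0.982% of all genes lower and 0.203% higher, and limma voom called 0 genes at all. At the unadjusted threshold, 4.78% of all genes were lower and 3.06% higher by the quasi-likelihood test. Of the 7, 5 had a log2 fold change below 0, as did 50.2% of all genes, and their median was −0.75, against −0.0014 for all genes tested. Without Control replicate 1 that median was −0.055. The authors' deposited table lists 84 genes and 0 of these 10.

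Counted with the low genes, 7 of the 10 were lower in Trim33-deficient bodies within both pairs of same-numbered libraries. Mesp1 and Cdx2, 2 genes, were higher within both pairs, and Fgf8 was on opposite sides. Of the 7 members that passed the low-count filter, 5 were lower in both pairs, 1 higher in both and 1 on opposite sides. Over all genes tested, 29.8% were lower in both pairs, 30.3% higher in both, and 39.9% on opposite sides. The groups did not overlap for 4 genes, Tbx6, Wnt3, Cdx1 and Cdx4, each lower in both Trim33-deficient libraries, and of these Tbx6 and Wnt3 were tested. Such a gap was found for 21.4% of all genes in that direction, for 19.3% in the other, and for 40.7% in either.

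**Figure D1:**
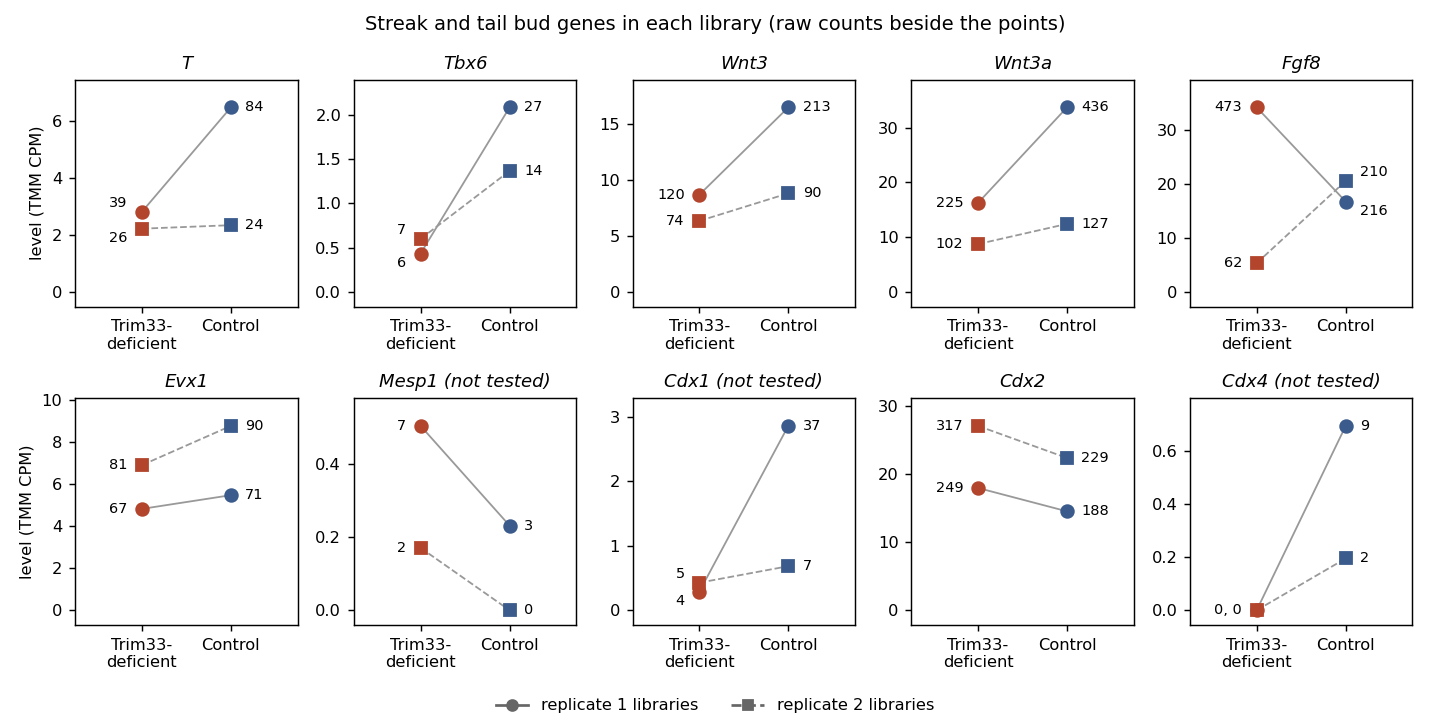
Level of each gene in TMM-scaled CPM (vertical axis, from 0, its own scale per gene) in the Trim33-deficient libraries (left, red) and the Control libraries (right, blue). Circles and solid lines join the replicate 1 libraries, squares and dashed lines the replicate 2 libraries, and the printed numbers are raw counts. T, Tbx6, Wnt3, Wnt3a, Cdx1 and Cdx4 are each highest in Control replicate 1, and the lines of Fgf8 run in opposite directions.

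The transcription factors of mesoderm commitment were scarce. T, which drives mesoderm formation and axial elongation, had 39 and 26 counts in the Trim33-deficient libraries and 84 and 24 in the Control libraries. That is 2.52 ± 0.419 CPM in Trim33-deficient and 4.42 ± 2.93 CPM in Control bodies (SD, n = 2 each). Control replicate 1 was the high library, and the other 3 lay between 2.22 and 2.81 CPM. The log2 fold change was −0.82 (edgeR adjusted p = 0.728, SE 0.59). Within the pairs the log2 ratio was −1.21 for replicate 1 and −0.078 for replicate 2, and without Control replicate 1 the log2 fold change was 0.10.

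Tbx6, which directs posterior progenitors to paraxial mesoderm and away from neural fate, separated the groups. It had 6 and 7 counts in the Trim33-deficient libraries and 27 and 14 in the Control libraries. The level was 0.515 ± 0.117 CPM in Trim33-deficient and 1.73 ± 0.509 CPM in Control bodies (SD, n = 2 each), so 29.8% of the Control level was present. Its log2 fold change of −1.74 (SE 0.55) had an edgeR unadjusted p of 0.0269 and an adjusted p of 0.601. The log2 ratio was −2.27 in the replicate 1 pair and −1.19 in the replicate 2 pair. With each library left out in turn, the edgeR value nearest 0 was −1.41, without Control replicate 1. The lowest adjusted p of Tbx6 in the fits that gave one was 0.233. On counts pooled by group, the ratio of Trim33-deficient to Control was 0.287, with an exact 95% interval of 0.141 to 0.547 that covers counting error only.

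Mesp1, a bHLH factor of nascent and cardiac mesoderm, was at the limit of detection. It had 7 and 2 counts in the Trim33-deficient libraries and 3 and 0 in the Control libraries. The ratio of pooled counts, Trim33-deficient over Control, was 2.72, with an exact 95% interval of 0.679 to 15.6 that covers counting error only. A difference was not detectable at this depth. A count of 0 allows up to 3 counts, which is 0.293 CPM in Control replicate 2.

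The WNT ligands were better covered, and both were highest in Control replicate 1. Wnt3, needed to start the streak, had 120 and 74 counts in the Trim33-deficient libraries and 213 and 90 in the Control libraries. This gave 8.65 and 6.32 CPM in Trim33-deficient bodies and 16.5 and 8.79 CPM in Control bodies. The groups did not overlap, but the higher Trim33-deficient library and the lower Control library, at 8.65 and 8.79 CPM, nearly met. The log2 fold change was −0.75 (edgeR adjusted p = 0.678, SE 0.40), with log2 ratios of −0.93 and −0.48 within the replicate 1 and replicate 2 pairs. It was −0.23 without Control replicate 1.

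Wnt3a, which maintains the tail bud progenitors, had 225 and 102 counts in the Trim33-deficient libraries and 436 and 127 in the Control libraries. The level was 12.5 ± 5.31 CPM in Trim33-deficient and 23.0 ± 15.1 CPM in Control bodies (SD, n = 2 each), and the groups overlapped. The 2 replicate 1 libraries were the 2 highest. The log2 fold change was −0.89 (edgeR adjusted p = 0.715, SE 0.58), with log2 ratios of −1.05 and −0.51 within the pairs. Without Control replicate 1 it was 0.0068. The raw Wnt3a count over the raw Wnt3 count, which no scaling touches, was 1.88 and 1.38 in the Trim33-deficient libraries and 2.05 and 1.41 in the Control libraries, so it was close within each replicate number.

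Both WNT genes are also made in the neural tube, and neural tube markers were high in the same library. The summed level of 12 such genes was 135.9 and 70.6 CPM in the Trim33-deficient libraries and 329.6 and 97.7 CPM in the Control libraries, with Control replicate 1 the highest. All 12 were tested, each with a negative log2 fold change (median −1.07), and 0 passed the edgeR test. None was at 0 in any library. Their part in the WNT and T values was not tested.

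**Figure D2:**
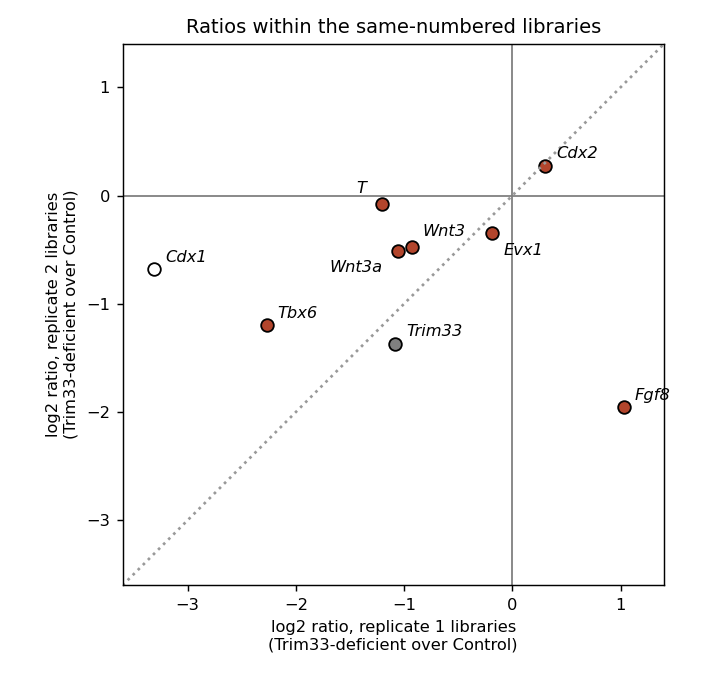
Log2 ratio of Trim33-deficient over Control within the replicate 1 libraries (horizontal) and within the replicate 2 libraries (vertical), one point per gene. Red points are tested members, the open point is Cdx1, which was not tested, the grey point is Trim33, and the dotted line marks equal ratios. Mesp1 and Cdx4 have libraries at 0 counts and are not drawn, and Fgf8 lies at 1.03 and −1.95.

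Fgf8, a streak ligand that lets mesoderm cells move away, was spread more widely between the Trim33-deficient replicates than between the group means. It had 473 and 62 counts in the Trim33-deficient libraries and 216 and 210 in the Control libraries. The level was 34.1 and 5.30 CPM in Trim33-deficient bodies and 16.7 and 20.5 CPM in Control bodies. The Trim33-deficient libraries thus held both the highest and the lowest value, 6.44-fold apart, where the median gene differed 1.16-fold between them. The log2 fold change was 0.089 (edgeR adjusted p = 0.981, SE 0.84). It turned to −0.34 in limma voom and −0.39 with the replicate block, and ran from −1.81 without Trim33-deficient replicate 1 to 0.88 without Trim33-deficient replicate 2.

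FGF8 is also a signal of the early heart field, and heart markers were high in the same library. The summed level of 6 cardiac genes was 1144 and 247.8 CPM in the Trim33-deficient libraries and 156.3 and 329.2 CPM in the Control libraries. This sum and the level of Fgf8 were both highest in Trim33-deficient replicate 1. Nkx2-5, the early heart homeobox gene, had 656 and 55 counts in the Trim33-deficient libraries and 59 and 99 in the Control libraries. It is named after its values were seen, and the part of heart cells in the Fgf8 value was not tested.

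Of the homeobox genes, Evx1, an even-skipped relative expressed in the posterior streak and later in spinal interneurons, differed little. It had 67 and 81 counts in the Trim33-deficient libraries and 71 and 90 in the Control libraries. The level was 5.88 ± 1.47 CPM in Trim33-deficient and 7.14 ± 2.34 CPM in Control bodies (SD, n = 2 each), with overlapping groups. The log2 fold change was −0.28 (edgeR adjusted p = 0.846, SE 0.38), and 0.10 without Control replicate 2. Evx1 has an overlapping gene on the other strand, Evx1os, in the GRCm38 annotation, and the sources used here do not give the strand setting of the counting, so their reads cannot be told apart.

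Of the 3 caudal genes, Cdx2 had a log2 fold change above 0 and Cdx1 and Cdx4 were lower in count in the Trim33-deficient libraries. Cdx2, which acts in posterior axis growth, trophoblast and intestine, had 249 and 317 counts in the Trim33-deficient libraries and 188 and 229 in the Control libraries. The level was 22.5 ± 6.45 CPM in Trim33-deficient and 18.4 ± 5.54 CPM in Control bodies (SD, n = 2 each). The replicate 2 library was the higher one in each group, and the groups overlapped. The log2 ratio was 0.31 and 0.28 within the 2 pairs, and the log2 fold change was 0.29 (edgeR adjusted p = 0.814, SE 0.33). Without Trim33-deficient replicate 2 it was −0.034.

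Cdx1, a WNT and retinoic acid target that patterns the axial skeleton, had 4 and 5 counts in the Trim33-deficient libraries and 37 and 7 in the Control libraries. The level was 0.288 and 0.427 CPM in Trim33-deficient bodies and 2.86 and 0.684 CPM in Control bodies. The groups did not overlap, yet the Control libraries themselves were 4.18-fold apart. With no filter on low counts the log2 fold change was −2.30 (edgeR adjusted p = 0.677, SE 0.89). The log2 ratio was −3.31 in the replicate 1 pair and −0.68 in the replicate 2 pair. The ratio of pooled counts was 0.185, with an exact 95% counting interval of 0.0796 to 0.385.

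Cdx4, the most posteriorly restricted caudal gene, had 0 and 0 counts in the Trim33-deficient libraries and 9 and 2 in the Control libraries. For the ratio of pooled counts, Trim33-deficient over Control, the exact 95% interval reached up to 0.361 and covers counting error only. With no filter on low counts the edgeR adjusted p was 0.677. Without Control replicate 1, 2 counts of Cdx4 remain in all.

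Markers of other cell types were read beside these values. The summed level of 10 trophoblast genes was 486.5 and 581.2 CPM in the Trim33-deficient libraries and 652.0 and 545.9 CPM in the Control libraries. Without Hand1, the most abundant of them and also a lateral mesoderm gene, the sum was 267.7 and 237.3 CPM in the Trim33-deficient libraries and 532.4 and 157.6 CPM in the Control libraries, with Control replicate 1 the highest. Elf5, the trophoblast stem cell factor, had 5 and 3 counts in the Trim33-deficient libraries and 32 and 2 in the Control libraries, and is named after its values were seen. Among 8 definitive endoderm and gut genes the sum was 270.5 and 232.4 CPM in the Trim33-deficient libraries and 232.4 and 326.9 CPM in the Control libraries. Without Gata4, the most abundant of them, it was 110.6 and 74.5 CPM in the Trim33-deficient libraries and 144.6 and 155.8 CPM in the Control libraries. Of the 7 tested, 4 genes, Sox17, Foxa2, Trh and Vil1, had both Trim33-deficient libraries below the Control range and 0 had both above it. Over all genes tested these shares were 21.4% and 19.3%. Cdh17, too low to be tested, went the other way without overlap, with 5 and 7 counts in the Trim33-deficient libraries and 0 and 1 in the Control libraries. Vil1, which encodes villin of absorptive epithelia, was at 6.92 and 5.64 CPM in the Trim33-deficient libraries and 20.7 and 34.9 CPM in the Control libraries. Its log2 fold change of −2.14 did not pass in edgeR (adjusted p = 0.336) and was called in DESeq2 (adjusted p = 8.2e-05), but not in DESeq2 without Trim33-deficient replicate 1 or 2 (0.0653 and 0.219). The hormone precursor gene Trh had a log2 fold change of −0.77 (SE 0.14, edgeR adjusted p = 0.456). Whether definitive or visceral endoderm gave the lower values of Sox17, Foxa2, Trh and Vil1 was not tested. Visceral endoderm markers were lower, 9 of 9 in DESeq2. For each the groups did not overlap, with summed levels of 63.8 and 59.3 CPM in the Trim33-deficient libraries against 978.4 and 1036 CPM in the Control libraries. Of these 9 genes edgeR called Apoc2 and Cubn lower (adjusted p = 0.0138 and 0.0166). In edgeR neither passed without Trim33-deficient replicate 1 (adjusted p = 0.835 for both) or replicate 2 (0.826), although the log2 fold change of Apoc2, −6.12 with all libraries, was then −6.12 and −6.11. DESeq2 called both genes there (Apoc2 adjusted p = 3.1e-19 and 1.0e-21). The summed level of 6 pluripotency genes was 77.0 and 121.6 CPM in the Trim33-deficient libraries and 225.4 and 121.5 CPM in the Control libraries. The part of these cells in the values of the 10 genes was not tested.

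**Figure D3:**
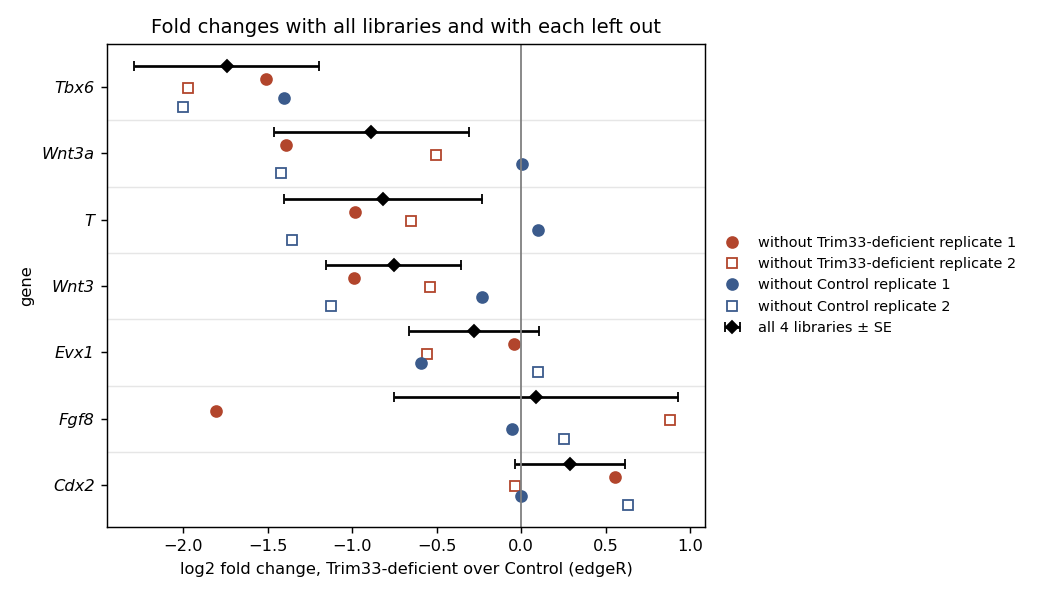
Log2 fold change of the 7 tested genes, Trim33-deficient over Control (horizontal), from edgeR. Black diamonds with bars are the fit of all 4 libraries ± SE, filled or open red points leave out a Trim33-deficient library, and blue points leave out a Control library. All 4 fits of Tbx6 lie at −1.41 or lower, while T and Wnt3a reach 0.10 and 0.0068 without Control replicate 1.

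The spread between replicates was wide for these genes. The Control replicates differed 2.77-fold in T, 2.72-fold in Wnt3a and 1.87-fold in Wnt3, where the median gene differed 1.18-fold. A difference of over 2-fold between Control replicates was found in 13.9% of all genes tested. This share and the median are over genes of all levels, and low counts differ more through counting error alone. No background matched for level was made. The Trim33-deficient replicates differed 1.27-fold in T, 1.86-fold in Wnt3a and 1.37-fold in Wnt3. Each of these 3 genes was thus further apart between Control replicates than between Trim33-deficient replicates, while the median gene differed about equally in the groups. Fgf8 went the other way, 1.23-fold between Control and 6.44-fold between Trim33-deficient replicates. Tbx6, Evx1 and Cdx2 were 1.53-, 1.60- and 1.54-fold apart in Control, and 1.38-, 1.43- and 1.51-fold in Trim33-deficient bodies.

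Per kilobase of the longest coding transcript, Fgf8 was the most abundant member in 3 of 4 libraries. The medians over the 4 libraries, in CPM per kilobase, were 15.9 for Fgf8, 8.92 for Cdx2, 5.18 for Wnt3a, 2.84 for Wnt3, 2.16 for Evx1 and 1.26 for T. Tbx6 followed at 0.569, Cdx1 at 0.317, Mesp1 at 0.158 and Cdx4 at 0.0497. Neighbours in this order overlapped in their ranges over the libraries, Fgf8 for example running from 4.53 to 29.2 and Cdx2 from 6.43 to 11.97. The raw Cdx2 count exceeded the raw T count 6.38- and 12.2-fold in the Trim33-deficient libraries and 2.24- and 9.54-fold in the Control libraries, the lowest ratio being that of Control replicate 1.

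Further genes of the streak and its derivatives were read beside the 10, from 4 lists. With all 4 libraries none passed the edgeR test or DESeq2. Fits with a library left out were read for the named genes only, and the log2 fold changes moved with the Control library kept. In DESeq2, Dll1 was at −1.76 without Control replicate 2 and −0.22 without Control replicate 1. Lfng was at −1.62 and −0.73 in the same fits. Tbx20 and Twist1, which were above 0 with all libraries, are given below. Of 12 other primitive streak genes 10 were tested, 6 with log2 fold changes below 0, and the median was −0.31. Mixl1, a homeobox gene of the nascent streak, had 1 and 3 counts in the Trim33-deficient libraries and 16 and 11 in the Control libraries, a log2 fold change of −2.79 (SE 0.76, edgeR adjusted p = 0.548). Zic2 was at 62.7 and 37.1 CPM in the Trim33-deficient libraries and 141.6 and 65.4 CPM in the Control libraries (log2 fold change −1.05, and −0.39 without Control replicate 1). Nodal, the ligand that induces the streak, was at 15.2 and 18.0 CPM in Trim33-deficient bodies and 10.9 and 12.6 CPM in Control bodies (log2 fold change 0.50).

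Most tested presomitic genes had negative log2 fold changes. Of 14 listed, 11 were tested, 8 with log2 fold changes below 0, and the median was −0.95. Msgn1 and Ripply2, which mark presomitic mesoderm in the embryo, had 0 counts in all 4 libraries, where the limit that a count of 0 allows was 0.216 to 0.293 CPM. Lfng, the glycosyltransferase of the segmentation clock, was at 20.3 and 15.1 CPM in Trim33-deficient and 55.2 and 29.4 CPM in Control bodies. Lfng thus differed by −1.26 on the log2 scale (SE 0.36, edgeR adjusted p = 0.577). The Notch ligand gene Dll1 was at 20.4 and 12.9 CPM in Trim33-deficient and 57.0 and 19.4 CPM in Control bodies. Uncx, a somite homeobox gene, was at 2.67 and 2.05 CPM in Trim33-deficient and 8.27 and 2.83 CPM in Control bodies. Dll1, Lfng and Pax3 are also active in the neural tube, and Control replicate 1 was again the highest library for each of the 3. Without it the log2 fold change was −0.73 for Lfng, −0.23 for Dll1 and −0.26 for Uncx, against −1.20 for Dll1 and −1.24 for Uncx with all libraries.

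Tail bud and axial progenitor genes were split. Of 12 listed, 11 were tested, 6 below 0 and 5 above, with a median of −0.39. Fgf17, an FGF8 relative, had 9 and 6 counts in the Trim33-deficient libraries and 43 and 12 in the Control libraries, a log2 fold change of −1.94 (SE 0.70, edgeR adjusted p = 0.628) that was −0.998 without Control replicate 1. Lef1, a mediator of WNT signals, was at 80.1 and 66.0 CPM in Trim33-deficient bodies and 54.9 and 53.8 CPM in Control bodies (log2 fold change 0.43). Gdf11, which ends axial growth, was at 15.2 and 19.1 CPM in Trim33-deficient bodies and 11.7 and 10.1 CPM in Control bodies (log2 fold change 0.66).

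All 8 lateral and extraembryonic mesoderm genes were tested and had log2 fold changes above 0, with a median of 0.44. Within the pairs, however, 2 of the 8 were higher in both, and their summed level was 691.7 and 929.6 CPM in the Trim33-deficient libraries and 273.9 and 994.5 CPM in the Control libraries, with Control replicate 1 the lowest. Among the 8, only Prrx1, of limb and lateral mesenchyme, had both Trim33-deficient libraries, at 49.9 and 37.2 CPM, above both Control libraries, at 23.8 and 30.0 CPM. Prrx1 thus differed by 0.70 on the log2 scale (SE 0.22, edgeR adjusted p = 0.597). Tbx20, of the lateral plate and heart, was at 125.6 and 221.6 CPM in the Trim33-deficient libraries and 28.4 and 180.5 CPM in the Control libraries, and its log2 fold change of 0.74 moved to −0.062 when Control replicate 1 was left out and to 2.61 when Control replicate 2 was. Twist1 was at 103.2 and 70.6 CPM in Trim33-deficient and 33.4 and 74.1 CPM in Control bodies, and its log2 fold change of 0.70 was 0.23 and 1.39 in the same fits.

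**Figure D4:**
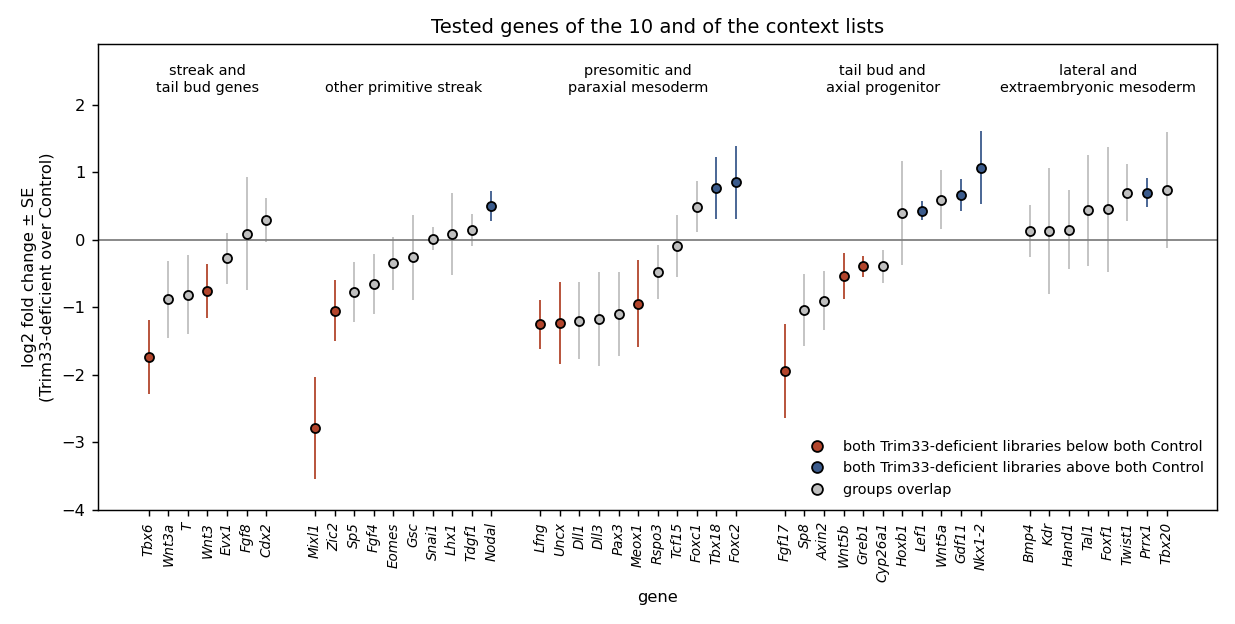
Log2 fold change ± SE, Trim33-deficient over Control (vertical), of each tested gene among the 10 and in 4 lists of related genes. Red points have both Trim33-deficient libraries below both Control libraries, blue points have both above, and grey points overlap. The 8 lateral and extraembryonic mesoderm genes all lie above 0, and Mixl1 at −2.79 is the lowest point.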

How the data were processed

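The labels name 2 Trim33-deficient and 2 Control libraries from total RNA, grouped by title. STAR, HTSeq, DESeq and mm9 are named, without version or role, per the submitters' processing notes. Raw counts by gene symbol are what the authors deposited for each library. Rows that name no gene, 55.5% to 56.0% of reads as unassigned and up to 0.200% as ambiguous, stayed out of library sizes and tests. The authors' deposited table of 84 genes gives fold, log2 fold change and p-values, and served only to look up the members.

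Counts were filtered with filterByExpr, scaled by TMM and tested with edgeR 4.0.16 (quasi-likelihood, Benjamini-Hochberg over 14259 genes, threshold 0.05, two-sided, no replicate block) in R 4.3.3. The SE is the absolute log2 fold change over the square root of F. The alternatives tried were edgeR's likelihood ratio test, DESeq2 1.42.0, voom in limma 3.58.1, RLE and library-size scaling, no filter or at least 1 CPM in 2 libraries, the block and each library left out. DESeq2 without filter and with libraries left out was added after seeing the data. The tests were tested on simulated data. Transcript lengths came from GENCODE on GRCm38.

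The labels speak of independent pairs but do not state that the replicate number marks the pair. Same numbers were taken as pairs, and every within-pair value rests on that. Deviations of same-numbered libraries from their group means correlated at 0.236 across genes. With 2 libraries per group, crossed numbers give the same value with the opposite sign, so it does not establish the pairs. Chi-square over degrees of freedom for replicates was 24.3 for Trim33-deficient and 35.7 for Control libraries, so none was a duplicate. Separate cultures are not stated, so the p-values reflect library-to-library spread, which may be technical. With a library left out, the lone one of its group is taken to have the spread of the intact group. The members, lists and named genes (all 10, up to 3 per list and up to 2 per marker list by smallest p) were chosen with earlier results of these data known. Of the marker genes the rule names, Actc1, Tnnt2, Nkx2-2, Olig2, Nanog and Tdh are given only within the sums of their lists.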

Additional observations from a re-analysis of the deposited data

How the results depend on the processing

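No member passed an adjusted p of 0.05 in the 18 fits, which gave 138 log2 fold changes, 135 with an adjusted p, and the lowest was 0.0618, for Wnt3a in DESeq2 without Control replicate 2. Calls over all genes, 2 in edgeR's quasi-likelihood test, were 141 in DESeq2, 136 in DESeq2 without filter, 169 in edgeR's likelihood ratio test, 0 in limma voom and 14 without filter. Leaving out single libraries gave 0 to 91 in edgeR and 48 to 676 in DESeq2 (54 without Trim33-deficient replicate 1, 48 without the other, 85 without Control replicate 1 and 676 without the other). The replicate block gave 2 calls and 0 among the members, with a Trim33 log2 fold change of −1.22 (adjusted p = 0.185), and changed no other call reported. The median log2 fold change of the 7 tested members ran from −1.13 to −0.055 in edgeR and from −1.12 to −0.060 in DESeq2 over the left-out libraries, the value nearest 0 being without Control replicate 1. Trim33 passed in DESeq2 (−1.22), DESeq2 without filter (−1.22) and the likelihood ratio test (−1.23). In DESeq2 without single libraries it ran from −1.34 to −1.09, passing without Control replicate 1 or 2 (adjusted p = 0.0034 and 0.0102) and not without Trim33-deficient replicate 1 or 2 (0.167 and 0.219).

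Signs turned for 5 members and 3 other genes. Fgf8 was −0.34 in voom and −0.39 with the block. Over left-out libraries, T ran in edgeR from −1.35 to 0.10, Wnt3a from −1.42 to 0.0068 (DESeq2 to 0.0077), Fgf8 from −1.81 (DESeq2 −1.80) to 0.88, Evx1 from −0.59 to 0.10 (DESeq2 to 0.11) and Cdx2 from −0.034 (DESeq2 −0.037) to 0.64. The others turned without Control replicate 1. Tbx20 ran from −0.062 (DESeq2 −0.059) to 2.61, Ascl2 from −2.34 to 0.047 (DESeq2 to 0.045) and Esx1 from −2.25 to 0.34. The cause was not tested. Depth limits Tbx6, Mesp1, Cdx1 and Cdx4, each under 40 counts in every library.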

Other observations

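Relatives of the 10 genes were looked up by family name after the values had been seen. They are given as levels and counts of genes without overlap, with no test result. The families include the members themselves. Of 19 WNT ligand genes 16 passed the low-count filter. Both Trim33-deficient libraries were under the Control range for 4 of them, Wnt2b, Wnt3, Wnt5b and Wnt9b, and over it for 0, where 21.4% of all genes tested were lower without overlap and 19.3% higher. Wnt2b had 33 and 26 counts in the Trim33-deficient libraries and 114 and 41 in the Control libraries. Wnt8b, a forebrain ligand, had 94 and 51 counts in the Trim33-deficient libraries and 401 and 32 in the Control libraries. Wnt2, of lateral plate and heart mesoderm, had 682 and 964 counts in the Trim33-deficient libraries and 82 and 550 in the Control libraries.

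Of 22 FGF genes 13 passed the filter, 5 of them with both Trim33-deficient libraries under the Control range and 1 with both over it, to be read against the same shares. Fgf15, an ileal and neural ligand, had 306 and 135 counts in the Trim33-deficient libraries and 947 and 358 in the Control libraries. Fgf7, a mesenchymal ligand and the one higher in both, had 31 and 33 counts in the Trim33-deficient libraries and 17 and 11 in the Control libraries. Of 17 T-box genes 12 passed the filter, again to be read against the same shares. Both Trim33-deficient libraries were under the Control range for 1, Tbx6, and over it for 2, Tbx15 and Tbx18. Tbx4, of the allantois and hindlimb, had 155 and 308 counts in the Trim33-deficient libraries and 4 and 161 in the Control libraries.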
